A study of Mus musculus with 6 samples.

Results

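The 7 protein-coding genes described here are *Rims2*, *Tac2*, *Ccdc92b*, *Suox*, *Hnmt*, *Il1rn* and *Wfdc17*, out of the 47729 genes measured by RNAseq in the tibial epiphysis of Control and Longshanks mice. They were chosen by the difference between LS1 and Control counts in these same libraries, so their differences are given as a description, with no test. The choice named the genes and set no threshold. All 7 averaged 20 reads per library or more, as did 19308 genes in all, which were tested.

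RNA came from 3 Control and 3 LS1 mice, 1 library per mouse, all 14 days old. LS1 (Longshanks 1) is a single line of mice bred for tibiae that are long for their body mass, and Control (ICR) is the randomly bred line kept alongside it. From each mouse the proximal ends of both tibiae were combined, and the tissue is labelled bone, cartilage and marrow. The labels name no treatment or transgene. Because LS1 is 1 selected line, the effect of selection and the history of that line cannot be told apart. The libraries held 68803249 to 76581954 reads in Control and 82227711 to 88745366 reads in LS1, so each LS1 library was deeper. Values are normalized counts, the reads of a gene divided by 1 size factor per library, and a read was worth 0.870 to 1.11 of them. LS1 replicate 3 stood apart from its line, with a score of -4.29 on principal component 1 (35.1% of variance), between the Control libraries (-41.5 to -22.1) and the other LS1 libraries (43.7 and 50.1). All 100 genes of 10 lists that mark cartilage, bone, marrow and neighbouring cell types were detected, none with fewer than 14 reads in a library.

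The growth plate lengthens the tibia as chondrocytes divide, enlarge and are replaced by bone, next to a marrow rich in myeloid, erythroid and lymphoid cells. The 7 genes belong to separate systems in this mixed tissue. *Rims2* encodes a scaffold that docks secretory vesicles, and *Tac2* encodes the peptide precursor of neurokinin B. *Hnmt*, *Il1rn* and *Wfdc17* act in histamine breakdown and inflammation, *Suox* encodes a sulfur-oxidizing enzyme, and *Ccdc92b* encodes a coiled-coil protein.

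Of the 7 genes 4 were higher in LS1 and 3 were lower, and in each the values of the lines did not overlap. Over all tested genes, 19.2% had groups that did not overlap, with all LS1 libraries above in 10.3% and all below in 8.94%. Since the same values chose the 7, nothing is read from that count. The adjusted threshold of 0.05 of limma, a linear model per gene with moderated variance, was passed by 14 genes, 0.0725% of those tested, with 2 higher (0.0104%) and 12 lower (0.0622%) in LS1. On the recovered reads edgeR called 7 genes (0.0363%) and DESeq2 456 (2.36%). Because this contrast chose the 7 genes, no call is given for them. Fold changes are on the log2(normalized count + 1) scale, LS1 over Control, which understates the change of genes with few reads. Bulk RNA cannot tell fewer cells of a type from less RNA per cell.

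**Figure D1:**
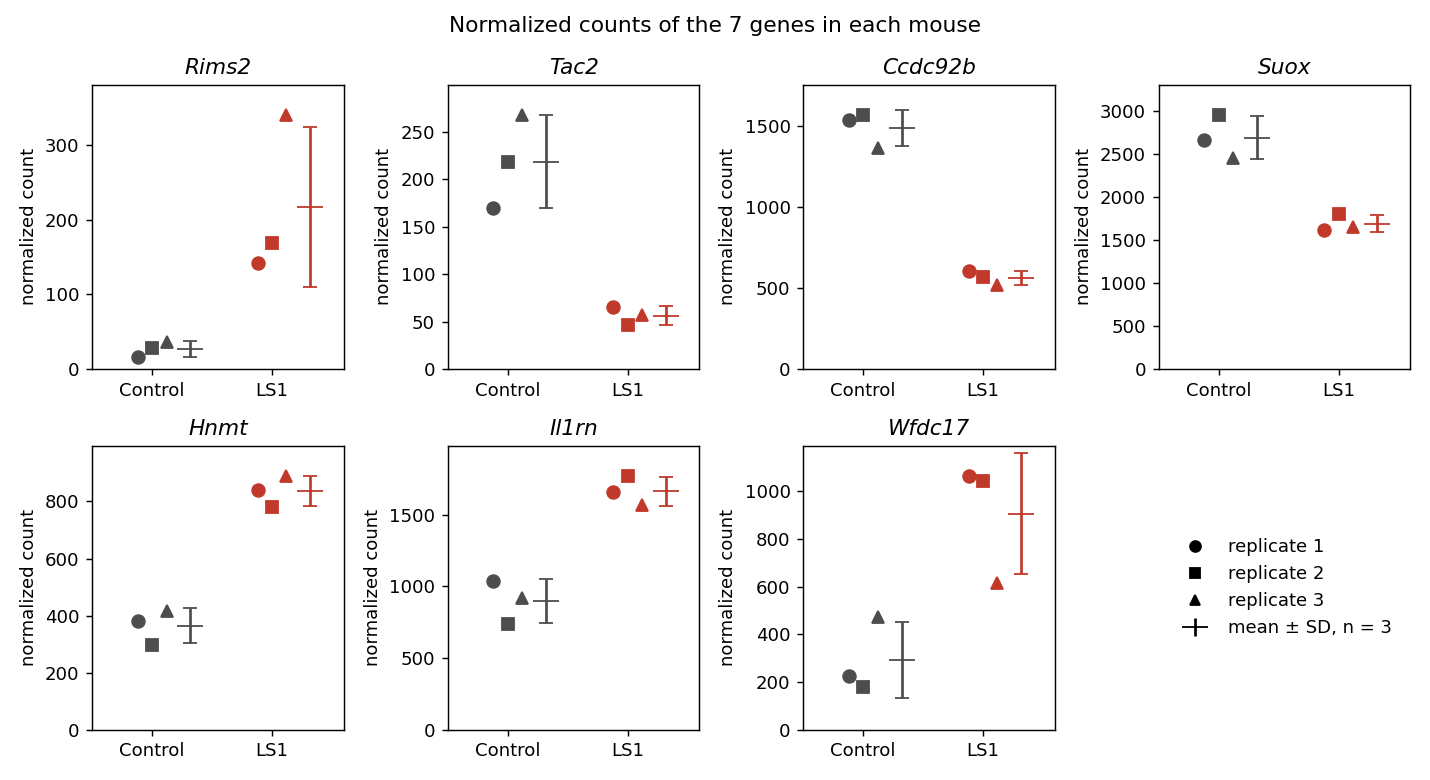
Normalized counts of the 7 genes in each mouse, 1 panel per gene with its own axis from 0. Circles, squares and triangles are replicates 1, 2 and 3, and the bars give the mean ± SD of 3 mice. No panel has overlapping groups. As a ratio the narrowest gap is that of *Wfdc17*, from 473 in Control replicate 3 to 615 in LS1 replicate 3.

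*Rims2* (ENSMUSG00000037386) lies on chromosome 15 of GRCm38 at 39198261-39684372, on the plus strand, and spans 486112 bases with 10389 bases of exon. Its product, RIM2, tethers vesicles to the release site by binding RAB3, MUNC13 proteins and calcium channels. In Control its normalized counts were 16.1, 27.7 and 36.5, from 16, 25 and 33 reads. In LS1 they were 142, 169.7 and 340.5, from 149, 195 and 365 reads. The lowest LS1 library thus stood 3.89 times above the highest Control library, and LS1 replicate 3 was the highest of all. The means were 26.8 ± 10.2 (SD, n = 3) and 217 ± 107.5 (SD, n = 3), a ratio of 8.11 and a log2 fold change of 2.94 ± 0.42 (SE). Without LS1 replicate 3 the log2 fold change was 2.56. Per exon length *Rims2* was scarce in both lines, at 0.107 ± 0.0396 TPM (a share of all transcripts corrected for length) in Control and 0.889 ± 0.428 TPM in LS1 (SD, n = 3 each). Of the tested genes, 0.405% had a lower level per length in Control.

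The nearest coding genes on either side of *Rims2* had small log2 fold changes. *Dcaf13*, a factor in ribosome production 51.4 kb below it, averaged 3046 ± 158 normalized counts in Control and 3577 ± 60.1 in LS1 (SD, n = 3 each). Its log2 fold change was 0.23 ± 0.13 (SE; adjusted p = 0.463 from limma), with all LS1 libraries above Control. *Dcstamp*, needed for the fusion of osteoclast precursors and 61.6 kb above, had a log2 fold change of 0.16 ± 0.16 (SE; adjusted p = 0.701 from limma). The pseudogene *Gm9522*, between *Dcaf13* and *Rims2*, differed the other way, at 138 ± 55.4 in Control and 40.9 ± 4.36 in LS1 (SD, n = 3). Its log2 fold change of -1.64 ± 0.36 (SE) did not pass limma (adjusted p = 0.165) and passed DESeq2 (adjusted p = 0.00232). The annotated miRNA *Gm25381* lies within *Rims2* on the other strand, shares 0 exon bases with it, and had at most 3 reads in a library.

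*Tac2* (ENSMUSG00000025400) lies on chromosome 10 at 127724478-127731768, on the plus strand, with 1378 bases of exon. Neurokinin B acts mainly through the receptor encoded by *Tacr3* and is best known from neurons that control reproduction. The Control libraries had 169.5, 218 and 268 normalized counts, and the LS1 libraries had 65.7, 46.1 and 56.9. The LS1 values were all below the Control values, and the lowest Control value was 2.58 times the highest LS1 value. The means of 219 ± 49.1 and 56.2 ± 9.81 (SD, n = 3 each) gave a 3.89-fold lower level in LS1, a log2 fold change of -1.93 ± 0.29 (SE). The level per length was 6.57 ± 1.41 TPM in Control and 1.74 ± 0.265 in LS1 (SD, n = 3 each).

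Both direct neighbours of *Tac2* lie close by and had overlapping groups. *Myo1a*, a brush border myosin 3.54 kb below, had 27.7 ± 5.95 normalized counts in Control and 31.3 ± 18.2 in LS1 (SD, n = 3 each). *Zbtb39*, a zinc finger gene 7.77 kb above, had 1119 ± 106 and 998 ± 30.0 (SD, n = 3 each). Their log2 fold changes were 0.05 ± 0.47 and -0.16 ± 0.16 (SE; adjusted p = 0.975 and 0.707 from limma).

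*Suox* (ENSMUSG00000049858) lies 938 kb further along the same chromosome, at 128669894-128674073 on the minus strand, with 2497 bases of exon. It encodes sulfite oxidase, the mitochondrial molybdenum enzyme that turns sulfite into sulfate at the end of sulfur amino acid breakdown. Cartilage uses sulfate to build its proteoglycans. Its normalized counts were 2663, 2950.0 and 2449.9 in Control and 1613, 1803 and 1652 in LS1. The LS1 libraries were again all lower, with a narrow gap in which the lowest Control value was 1.36 times the highest LS1 value. The means were 2688 ± 251 and 1689 ± 100.4 (SD, n = 3 each), 1.59-fold apart, with a log2 fold change of -0.67 ± 0.14 (SE). It had the smallest difference of the 7 genes and, at 44.8 ± 6.08 TPM (SD, n = 3), the highest Control level per length.

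Between *Tac2* and *Suox* lie 43 coding genes, so the pair are not neighbours. *Rab5b*, a GTPase of early endosomes 3.10 kb above *Suox*, had 6814 ± 90.4 normalized counts in Control and 7229 ± 228 in LS1 (SD, n = 3 each). Its log2 fold change of 0.08 ± 0.12 (SE; adjusted p = 0.795 from limma) was opposite in sign to that of *Suox*, with all LS1 libraries above Control. *Ikzf4*, a lymphoid transcription factor 23.9 kb below, had a log2 fold change of 0.26 ± 0.32 (SE; adjusted p = 0.760 from limma).

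The promoter of *Suox* carries a tandem repeat and is printed for it. The RefSeq table on GRCm38.p6 holds 250 bases before a start site for 5 of the 7 genes (*Tac2*, *Suox*, *Hnmt*, *Il1rn* and *Wfdc17*). For *Suox* this is chr10:128673919-128674168 on the minus strand, written 5′ to 3′, with the tandem repeat in capitals.
*Suox*: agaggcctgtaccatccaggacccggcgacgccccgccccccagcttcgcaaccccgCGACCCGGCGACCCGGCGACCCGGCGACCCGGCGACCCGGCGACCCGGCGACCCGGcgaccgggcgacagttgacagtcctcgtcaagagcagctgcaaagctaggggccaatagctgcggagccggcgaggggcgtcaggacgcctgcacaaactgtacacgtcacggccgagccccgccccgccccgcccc
The capitals are 7 copies of CGACCCGG, from 193 to 138 bases before the RefSeq start. That start lies inside the gene as GENCODE places it, so 155 of the 250 bases, the end of the repeat among them, are within the annotated gene. Of 32851 RefSeq promoters of this length, 1 (0.00304%), that of *Suox*, held 2 or more adjacent copies of this unit on either strand. The unit was taken from the *Suox* promoter itself and repeats of other units were not searched. The count thus does not show how common tandem repeats are. G and C made up 74.4% of the window, more than in 95.4% of promoters. It also held CCAAT 85 bases before the RefSeq start and 4 matches to the GC box GGGCGG, some of which overlap one another. The CCAAT and 3 of the GC boxes lie within the annotated gene. Both strands were searched, and 33.8% of all promoters hold CCAAT and 32.7% hold GGGCGG. These matches describe the letters of the reference genome and are not measured binding sites.

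*Hnmt* (ENSMUSG00000026986) and *Il1rn* (ENSMUSG00000026981) lie 287 kb apart on chromosome 2, and both were higher in LS1. *Hnmt*, at 24002910-24049394 on the minus strand with 1769 bases of exon, encodes the enzyme that methylates and so inactivates histamine inside cells. Its normalized counts were 379, 297 and 416 in Control and 839.9, 781 and 889 in LS1. The groups were well apart, the lowest LS1 library at 1.88 times the highest Control library. The means of 364 ± 60.8 and 837 ± 53.8 (SD, n = 3 each) differed 2.30-fold, a log2 fold change of 1.21 ± 0.20 (SE).

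*Il1rn*, at 24336853-24351494 on the plus strand with 5535 bases of exon, encodes the antagonist that occupies the interleukin 1 receptor without signalling. Control mice had 1035, 734 and 921 normalized counts and LS1 mice had 1658, 1769 and 1566. Again no LS1 library reached down to Control, the lowest being 1.51 times the highest Control value. The means of 897 ± 152 and 1664 ± 102 (SD, n = 3 each) differed 1.86-fold, a log2 fold change of 0.90 ± 0.18 (SE).

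The stretch between *Hnmt* and *Il1rn* holds 6 coding genes, mostly of the interleukin 1 family, and nearly all were at or near 0 in this tissue. *Il1f5*, *Il1f6*, *Il1f8* and *Tbpl2* had at most 6 reads in any library, and *Il1f10* had 0 in every library. *Il1f9*, which encodes interleukin 36 gamma, was the tested one, at 371 ± 38.8 normalized counts in Control and 384 ± 29.6 in LS1 (SD, n = 3 each). Its log2 fold change was 0.05 ± 0.20 (SE; adjusted p = 0.942 from limma). The pseudogene *Gm13410*, also between them, had a log2 fold change of 0.56 ± 0.41 (SE; adjusted p = 0.589 from limma). On the outer sides, *Spopl*, an adaptor of a ubiquitin ligase 431 kb below *Hnmt*, had 0.02 ± 0.14, and *Psd4*, an exchange factor for ARF6 16.1 kb above *Il1rn*, had -0.00 ± 0.15 (log2 fold change ± SE; adjusted p = 0.972 and 1.00 from limma).

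The window before the first *Il1rn* start is shown because it held the one AP-1 match among the 7 windows of these 5 genes, chr2:24336610-24336859 on the plus strand, with the match in capitals.
*Il1rn*: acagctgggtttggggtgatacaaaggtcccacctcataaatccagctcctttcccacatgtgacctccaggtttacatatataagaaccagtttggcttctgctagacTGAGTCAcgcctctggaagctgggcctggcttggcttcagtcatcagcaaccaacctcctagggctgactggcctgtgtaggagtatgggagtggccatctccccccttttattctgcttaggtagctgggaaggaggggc
The letters TGANTCA, searched on both strands, were found as TGAGTCA 141 bases before the start, and 6.75% of all promoters hold such a match. AP-1 is the factor formed by FOS and JUN proteins, and its binding was not measured. *Il1rn* has 3 RefSeq starts, and the windows of the other 2 lie inside the annotated gene and held none of the motifs searched. The *Hnmt* window held CCAAT 238 bases before the start, with 38.8% G and C. The *Tac2* window, with 47.2% G and C, held none of the 6 motifs searched, which also included the TATA box TATAAA (12.4% of promoters) and the E-box CACGTG (6.02%).

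*Wfdc17* (ENSMUSG00000069792) lies on chromosome 11 at 83703991-83706268, on the plus strand, with 533 bases of exon. It encodes a small secreted protein with a WAP domain that is made by activated macrophages and microglia. The Control libraries had 227, 177 and 473 normalized counts and the LS1 libraries had 1065, 1043 and 615. Replicate 3 of each line lay towards the other line, so the lowest LS1 value was 1.30 times the highest Control value. The means were 293 ± 159 and 907 ± 254 (SD, n = 3 each), 3.10-fold apart, with a log2 fold change of 1.72 ± 0.36 (SE). Leaving out 1 library at a time moved it from 1.42 to 2.13. Its SD within groups, 0.61 on the log2 scale, exceeded that of 97.5% of the 200 genes nearest to it in level.

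The tested chemokine genes beside *Wfdc17* had log2 fold changes from -0.16 (*Ccl9*) to 3.08 (*Ccl4*). *Ccl4*, 39.3 kb below, encodes a macrophage chemokine and had 11.1, 4.43 and 33.2 normalized counts in Control and 104.7, 425 and 28.9 in LS1. LS1 replicate 3 fell within the Control range. The log2 fold change of 3.08 ± 1.06 (SE) did not pass (adjusted p = 0.313 from limma), and it was 2.10 without LS1 replicate 2 and 4.02 without LS1 replicate 3. *Ccl3* and *Ccl5*, further below, had log2 fold changes of 1.16 ± 0.34 and 1.89 ± 0.54 (SE; adjusted p = 0.247 for each from limma) with all LS1 libraries above Control. With DESeq2 both passed (adjusted p = 0.0435 and 0.000553). On the other side the WAP gene *Wfdc18*, 2.75 kb away, had too few reads to test, at 8.07, 4.43 and 13.3 normalized counts in Control and 2.86, 1.74 and 0.933 in LS1. *Wfdc21*, 40.7 kb away, was lower in all LS1 mice, at 1068, 941 and 1129 in Control and 508.5, 602 and 699 in LS1. Its log2 fold change of -0.80 ± 0.19 (SE) did not pass limma (adjusted p = 0.182) and passed DESeq2 (adjusted p = 0.00395). The signs of *Wfdc17* and *Wfdc21* were thus opposite.

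The *Wfdc17* window is printed for its match to the core of PU.1, a factor of myeloid cells, and for its CCAAT box, both in capitals, chr11:83703806-83704055 on the plus strand.
*Wfdc17*: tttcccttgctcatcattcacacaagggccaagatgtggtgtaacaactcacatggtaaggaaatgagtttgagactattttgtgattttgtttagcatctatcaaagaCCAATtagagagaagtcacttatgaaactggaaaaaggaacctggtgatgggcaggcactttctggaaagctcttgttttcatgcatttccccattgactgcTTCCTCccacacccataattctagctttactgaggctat
The PU.1 core GAGGAA was found on the opposite strand, as TTCCTC, 39 bases before the RefSeq start, and 23.3% of promoters hold it on some strand. The last 65 bases of this window, which hold the PU.1 match, lie within the gene as GENCODE places it. CCAAT stood 141 bases before the RefSeq start, outside the annotated gene. G and C made up 41.2% of this window against a median of 52.4% over all promoters.

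*Ccdc92b* (ENSMUSG00000069814) lies on the same chromosome at 74619605-74641516, on the plus strand, with 4002 bases of exon and 9.06 Mb from *Wfdc17*. It had 1534, 1564 and 1363 normalized counts in Control and 606, 566 and 518 in LS1. The groups were tight and far apart, and the lowest Control value was 2.25 times the highest LS1 value. The means of 1487 ± 109 and 563 ± 44.0 (SD, n = 3 each) gave a 2.64-fold lower level in LS1, a log2 fold change of -1.40 ± 0.17 (SE). Leaving out 1 library at a time gave -1.46 to -1.34. The SD within groups was 0.11 on the log2 scale, and 7.5% of the 200 genes nearest in level had a smaller one.

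*Ccdc92b* sits between *Rap1gap2* and *Cluh*, with a short gap on each side. *Rap1gap2*, an activator of GTP hydrolysis by RAP1 8.69 kb below, was higher in all LS1 mice, at 1340, 1512 and 1258 normalized counts in Control and 1942, 2798 and 1703 in LS1. *Cluh*, which binds mRNAs of mitochondrial proteins and starts 7.98 kb above, was lower in all LS1 mice, at 6430, 6791 and 6987 in Control and 4595, 6194 and 6243 in LS1. Their log2 fold changes were 0.62 ± 0.19 and -0.26 ± 0.15 (SE), and neither passed (adjusted p = 0.258 and 0.483 from limma). The paralog *Ccdc92* had 449, 510 and 487 in Control and 408, 361 and 289 in LS1, a log2 fold change of -0.46 ± 0.21 (SE; adjusted p = 0.385 from limma).

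Across all 7 genes there were 14 direct coding neighbours, of which 11 were tested. None of the 11 passed limma, edgeR, DESeq2 or limma-voom, and 2, *Rap1gap2* and *Ccl4*, had an unadjusted p under 0.05 from limma, a threshold met by 12.9% of all tested genes. Groups did not overlap in 4 of the 11 (36.4%). Within 0.5 Mb of the 7 genes lay 127 other tested genes, of which 0 passed limma, edgeR or limma-voom. Over all tested genes limma called 0.0725%, edgeR 0.0363% and limma-voom 11 of 19308. A count of 0 among 11 or 127 genes thus says little about them. DESeq2 called 5 of the 127, against 2.36% of all tested genes. An unadjusted p under 0.05 from limma was found for 17 (13.4%), against 12.9%. Of the 127, 26 (20.5%) had groups that did not overlap, near the 19.2% of all tested genes. The median log2 fold change of the 127 was -0.06 against 0.01 over all tested genes. The 5 called by DESeq2 were *Timeless*, *Ccl3*, *Ccl5*, *Wfdc21* and *Gm9522*. The lowest value in these windows was that of *Cacna1b*, a neuronal calcium channel gene 252 kb above *Il1rn*. It had 471, 1127 and 781 normalized counts in Control and 121, 71.4 and 347 in LS1, a log2 fold change of -2.36 ± 0.59 (SE; adjusted p = 0.236 from limma). Without LS1 replicate 3 it passed at -2.99 (adjusted p = 0.00253 from limma).

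**Figure D2:**
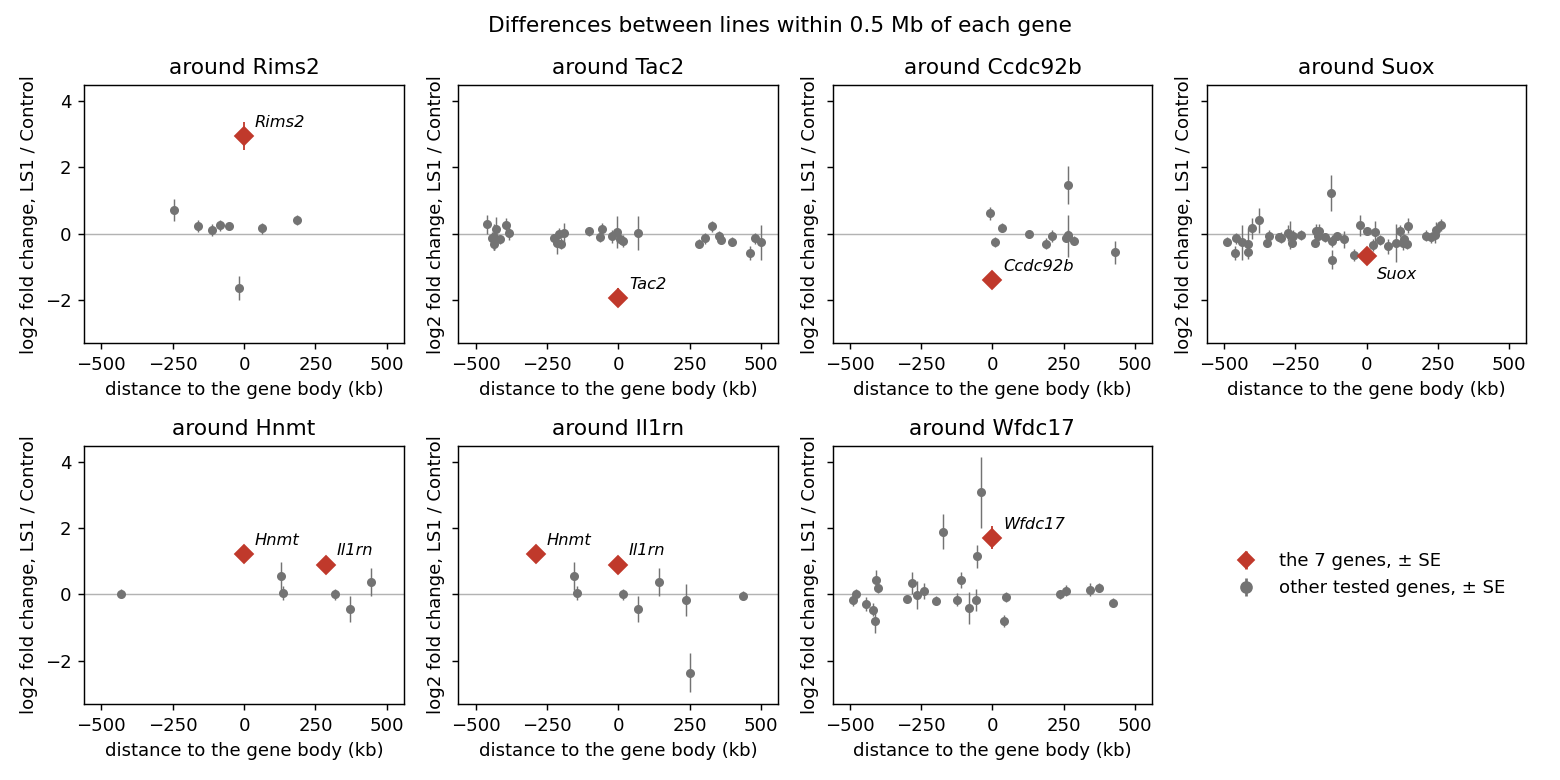
Log2 fold change (LS1 over Control, ± SE) of every tested gene within 0.5 Mb of each of the 7 genes, against its distance from the gene body in kb. Red diamonds are the 7 genes and grey points the others, most of which lie near 0 while *Ccl4* reaches 3.08 (2.10 without LS1 replicate 2) beside *Wfdc17* and *Cacna1b* -2.36 beside *Il1rn*.

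Levels of the 7 genes were then compared per exon length. In Control the order was *Suox* (44.8 TPM), *Wfdc17* (22.5), *Ccdc92b* (15.4), *Hnmt* (8.50), *Il1rn* (6.70), *Tac2* (6.57) and *Rims2* (0.107). The ranges of *Wfdc17* (14.5 to 35.6) and *Ccdc92b* (13.7 to 16.99) overlapped, as did those of *Hnmt* (7.30 to 9.44), *Il1rn* (5.76 to 7.64) and *Tac2* (5.03 to 7.80). In LS1 the order was *Wfdc17* (72.8), *Suox* (28.9), *Hnmt* (20.2), *Il1rn* (12.8), *Ccdc92b* (6.0), *Tac2* (1.74) and *Rims2* (0.889), and no neighbours in that order had overlapping ranges. *Ccdc92b* thus stood above *Hnmt* and *Il1rn* in every Control mouse and below both in every LS1 mouse.

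**Figure D3:**
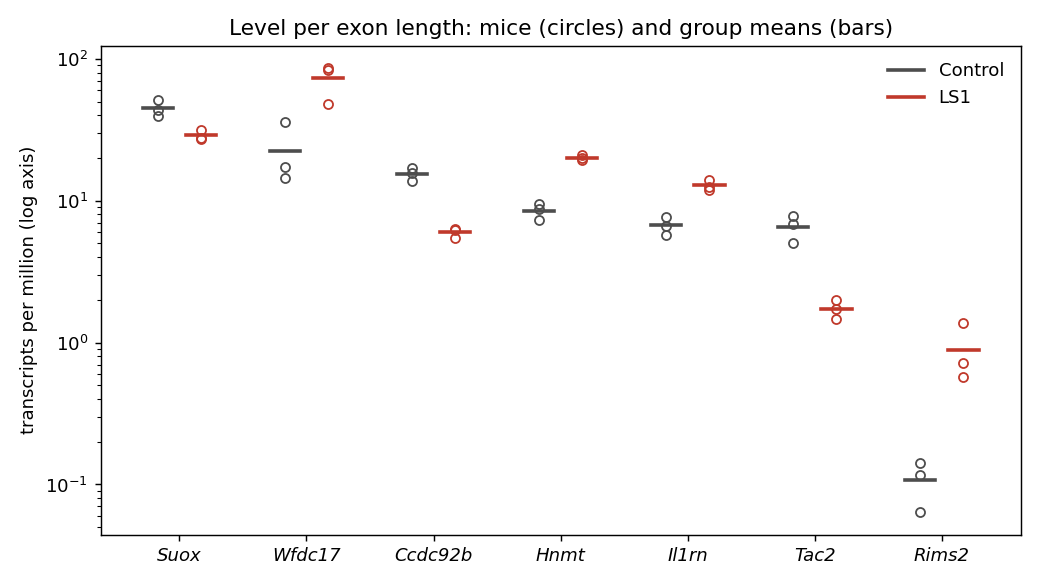
Level of the 7 genes per exon length, in TPM on a log axis. Circles are mice and bars are group means (n = 3), from 0.107 for *Rims2* in Control to 72.8 for *Wfdc17* in LS1.

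Reads of 35 to 50 bases can be shared between similar genes. Of the 35-base words in the annotated transcripts, *Tac2*, *Ccdc92b*, *Hnmt* and *Wfdc17* shared 0 with any other gene. *Rims2* shared 0.113%, *Suox* 0.162% and *Il1rn* 0.378%.

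The partners of these genes were read from 7 lists of 106 pathway or family genes, of which 80 were tested. Limma called 0 of the 80, edgeR and limma-voom 0 and DESeq2 3 (*Il18r1*, *Casp1* and *Wfdc21*), and 19 (23.8%) had an unadjusted p under 0.05 from limma. Over all tested genes limma called 0.0725%, edgeR 0.0363% and DESeq2 2.36%, and 12.9% had such an unadjusted p. Of the 32 partners of RIM2 in vesicle release, 24 were tested, with a median log2 fold change of -0.12 and none called. Those with the most counts in Control were *Ppfia1* (-0.16), *Vamp2* (-0.02) and *Erc1* (0.21), which encode a liprin, a vesicle SNARE and an active zone scaffold. The extremes were the calcium channel gene *Cacna1b* (-2.36, given above among the genes near *Il1rn*) and *Erc2*, a relative of *Erc1*. *Erc2* had 10.1, 28.8 and 12.2 normalized counts in Control and 31.4, 31.3 and 58.8 in LS1, a log2 fold change of 1.28 ± 0.51 (SE; adjusted p = 0.327 from limma). The neuronal release genes *Snap25* and *Syt1* had too few reads to test. *Snap25* had 4.04, 4.43 and 3.32 normalized counts in Control and 6.67, 1.74 and 0 in LS1, with overlapping groups. *Syt1* had 6.05, 4.43 and 4.42 in Control and 19.0, 7.83 and 13.1 in LS1, with all LS1 libraries above. *Rims1*, the closest relative of *Rims2*, had 92.8, 133 and 65.3 in Control and 144, 122 and 191 in LS1, with overlapping groups and a log2 fold change of 0.68 ± 0.33 (SE; adjusted p = 0.409 from limma).

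Of 7 tachykinin genes, 3 were tested and none was called. *Tacr3*, the main receptor of neurokinin B, had 2.02, 1.11 and 11.1 normalized counts in Control and 0, 3.48 and 0 in LS1, at or near the detection limit. *Tacr1*, which binds substance P best, had 35.3, 52.1 and 104.0 in Control and 128, 164 and 85.8 in LS1, with a log2 fold change of 1.06 ± 0.41 (SE; adjusted p = 0.322 from limma). The peptidase genes *Mme* and *Ace*, which encode enzymes that cut such peptides, had log2 fold changes of 0.25 and 0.06.

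None of the 8 tested genes of 11 in the histamine list was called, and their median log2 fold change was 0.25. In 2 of the 8, *Hrh2* (log2 fold change 0.80) and *Maob*, all LS1 libraries were above Control, and 0 had all below. Over all tested genes these shares were 10.3% and 8.94%. *Hdc*, which makes histamine, had 1506, 1155 and 1462 in Control and 1859.7, 2283 and 1043 in LS1, so its groups overlapped. *Aldh2* and *Maob*, which act after *Hnmt* in breakdown, had log2 fold changes of -0.24 and 0.61. The 17 genes of molybdenum cofactor synthesis and sulfur amino acid breakdown around *Suox* were all tested, with a median log2 fold change of 0.10 and none called. *Cdo1*, which starts cysteine oxidation, had -0.09, *Mtarc2* 0.10 and *Sqor*, which oxidizes sulfide, 0.35.

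In the interleukin 1 list 20 of 24 genes were tested, with a median log2 fold change of 0.35. None was called, 8 had all LS1 libraries above Control and 2 had all below, against 10.3% and 8.94% of all tested genes. *Il1b*, an agonist that *Il1rn* opposes, had 639, 541 and 452 in Control and 768, 1232 and 774 in LS1, a log2 fold change of 0.74 ± 0.23 (SE; adjusted p = 0.258 from limma). *Casp1*, the protease that matures it, had 1143, 1101 and 1073 in Control and 2223, 2921 and 1373 in LS1. Its log2 fold change of 0.91 ± 0.24 (SE) did not pass limma (adjusted p = 0.220) and passed DESeq2 (adjusted p = 0.00819). The members with the most counts in Control were *Irak1* (-0.26), *Myd88* (0.44) and *Il18rap* (0.56). Of 14 WAP genes 7 were tested, with a median of -0.07 and none called, led in counts by *Slpi* (-0.14), *Wfdc21* (-0.80) and *Wfdc1* (0.03).

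**Figure D4:**
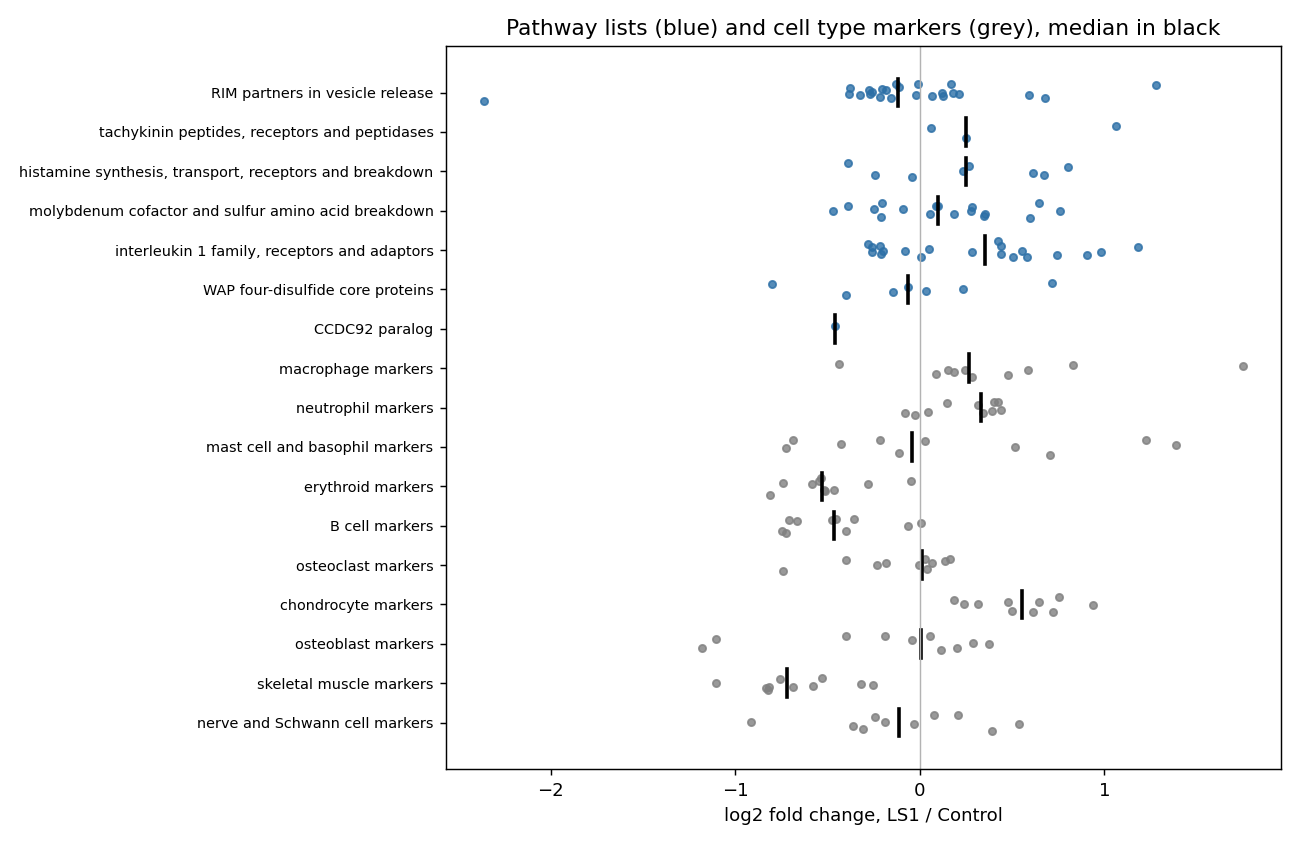
Log2 fold change (LS1 over Control) of each tested gene in the pathway lists (blue) and the cell type marker lists (grey), with the list median as a black bar. Medians run from -0.72 for skeletal muscle markers to 0.56 for chondrocyte markers.

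The 7 genes were set against the summed cell type markers, some of which did not overlap between the lines. None of the 100 marker genes passed limma, edgeR or limma-voom, 8 passed DESeq2 (5 of them chondrocyte markers), and 28 had an unadjusted p under 0.05 from limma. Over all tested genes these shares were 0.0725% for limma, 0.0363% for edgeR, 2.36% for DESeq2 and 12.9% for the unadjusted p. The summed chondrocyte markers ran from 2491810 to 2859370 normalized counts in Control and from 3323850 to 3769690 in LS1, with 6 of 10 genes higher in all LS1 mice, against 10.3% of all tested genes. Erythroid markers summed to 590628 to 775297 in Control and 351261 to 571867 in LS1, and B cell markers to 52558 to 56187 and 32338 to 50659. Macrophage markers summed to 32645 to 43650 in Control and 41472 to 48591 in LS1, and neutrophil markers to 249319 to 347234 and 320193 to 372835, so both overlapped.

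*Suox* overlapped between the lines against 4 of the 10 lists. Per 1000 normalized counts of erythroid markers it stood at 3.43, 4.72 and 4.15 in Control and 4.59, 3.15 and 3.0 in LS1. Against B cell markers it stood at 47.9, 56.1 and 43.6 in Control and 39.6, 55.8 and 32.6 in LS1. In both the groups overlapped, with Control means 1.15 times those of LS1. The other overlaps were against mast cell and muscle markers. Against the other 6 lists, chondrocyte markers among them, all LS1 libraries were lower. For chondrocyte markers that outcome was fixed in advance, since their sums were higher in every LS1 library while *Suox* was lower. The same holds for *Tac2* and *Ccdc92b* against chondrocyte markers. *Tac2* and *Ccdc92b* did not overlap against 9 of the 10 lists and overlapped against skeletal muscle markers, whose sum varied from 11691 to 28411 in Control and 6050 to 16502 in LS1.

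*Rims2*, *Hnmt*, *Il1rn* and *Wfdc17*, also chosen by these values, had groups that did not overlap against each of the 10 lists. Against erythroid and B cell markers that outcome was fixed in advance, since their sums were lower in every LS1 library. The share of all tested genes that do not overlap after such a division was not computed, so nothing is read from these counts. Set against nerve and Schwann cell markers, *Rims2* was 8.10 times higher in LS1, and over all lists 6.27 to 11.3 times. *Wfdc17*, per 1000 counts of macrophage markers, stood at 6.95, 5.10 and 10.8 in Control and 25.1, 21.5 and 14.8 in LS1, a ratio of means of 2.68. *Il1rn* was 1.53 times higher against macrophage markers and 1.62 times against neutrophil markers. *Hnmt* was 1.93 and 2.01 times higher against these and 2.62 times against mast cell and basophil markers.

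The genes most like each of the 7 were found by the Pearson correlation of log2(normalized count + 1) over the 6 libraries, which includes the difference between lines. *Rims2* was closest to *H2-DMb2* (r = 0.993) and *Sorl1* (r = 0.987), and *Tac2* to *Comtd1* (r = 0.997) and *Gm38366* (r = 0.992). *Ccdc92b* was closest to *Garem1* and *Gm15538* (r = 0.996 each), and *Suox* to *Aldh1a1* and *Clspn* (r = 0.992 each). *Hnmt* was closest to *Tuba1c* and *Cnmd* (r = 0.997 each), *Il1rn* to *Mgst1* (r = 0.993) and *Fbh1* (r = 0.986), and *Wfdc17* to *Tex14* (r = 0.995) and *Chst14* (r = 0.989). *Cnmd*, which encodes the cartilage protein chondromodulin, had 34310.5, 30285 and 36581 normalized counts in Control and 49345, 47181 and 52041 in LS1. With 6 libraries and 19308 genes, high values of r arise in many pairs, so these names are a description.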

How the data were processed

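Per the submitters' processing notes, the authors used HISAT2 2.0.2, featureCounts 1.4.6, DESeq2 and the build GRCm38. The deposited values are a normalized signal, in which each gene's read count was divided by 1 size factor per library. Every value in each library was a whole multiple of the value of 1 read (tolerance 0.001). In Control replicate 1 that value is close to 1, so edgeR was also run without it. No column was left unused.

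The values were compared as log2(value + 1) with limma 3.58.1 in R 4.3.3, with a mean-variance trend, robust moderation and Benjamini-Hochberg adjustment over 19308 genes (mean of recovered reads 20 or more). The recovered counts were also tested with edgeR 4.0.16, DESeq2 1.42.0 and limma-voom, and scripts were tested on simulated data. The 6 mice came from different families. The p-values set the difference between lines against the spread among 3 mice per line, which limma moderates over all tested genes. The members, lists, markers and tests were chosen with earlier results of these data known. The text names the 7 genes, their nearest coding neighbours, the 2 most correlated genes of each, and in each list the genes called and the 3 with the highest Control mean. Other genes, such as *Rims1*, *Tacr3*, *Hrh2*, *Il1b*, *Casp1*, *Cacna1b*, *Gm9522*, *Erc2*, *Ccl3*, *Ccl5* and *Ccl9*, were chosen after their values were seen. Symbols and exons came from GENCODE M21 on GRCm38, which matched 98.9% of identifiers, and promoters from RefSeq on GRCm38.p6. Levels per length are recovered reads per exon base, as TPM. No strand setting of the counting is given in the sources used here.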

Additional observations from a re-analysis of the deposited data

How the results depend on the processing

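The 7 genes were chosen because they differ between the lines in these libraries, so the sign of their log2 fold changes is no sign of stability. The neighbours called stayed at 0 under all 16 alternative settings, but they were too few for this count to show stability. The count of all genes called, 14 with limma, was 7 with edgeR, 5 with edgeR without Control replicate 1, 456 with DESeq2 and 45 with no filter on reads. Leaving out 1 library gave 5 to 324 genes, the lowest without Control replicate 2 (9 without Control replicate 1) and the highest without LS1 replicate 3 (46 without LS1 replicate 1). Of the 127 genes within 0.5 Mb of the 7 genes, DESeq2 called 5 instead of 0, against 456 of 19308 over all tested genes. Leaving out 1 library gave 0 to 4 of these 127. The 4, without LS1 replicate 3, were *Cacna1b*, *Rpl41*, *Ccl5* and *Wfdc21*, against 324 of 19308 over all tested genes. In the pathway lists DESeq2 called 3 of 80 genes instead of 0, and leaving out 1 library gave 0 to 3. The 3, without LS1 replicate 3, were *Cacna1b*, *Casp1* and *Wfdc21*, to be read against the same 324 of 19308. Of the 100 cell type markers, 3 were called with no filter on reads, against 45 of 38596 genes in all. Without LS1 replicate 3, 13 of the 100 were called, against 324 of 19308 genes, with *Adgre1*, *C1qb* and *Fcgr1* of macrophages among the 13. The cause was not tested. With the letter of the sample name as a replicate block 12 genes were called. Same-letter libraries had correlations of 0.05, 0.02 and 0.22 in their deviations, so the letters were not taken as a pairing, and not every library correlated best with its own letter.

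With 3 mice per line an exact permutation test of 1 gene (two-sided) cannot go below 0.1. *Rims2* rests on 16 to 33 reads per Control library. Sequence differences between the lines within these genes were not analysed here, and neither were the cells that express them.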
